A study of Mus musculus with 21 samples.

Results

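Autophagy and mitophagy genes were followed through the erythroid and myeloid fractions of mouse bone marrow. The set was fixed by name and held 10 genes of the 18213 gene symbols that could be matched to probes on the arrays. Its members were the mitophagy receptors Bnip3l and Bnip3, the cargo receptor Sqstm1, the initiation genes Ulk1, Becn1 and Wipi1, the conjugation enzyme Atg7, and the ATG8 family members Map1lc3b, Gabarapl1 and Gabarapl2. Probes were matched for 9 of the 10 genes, and all 9 were tested. No probe was matched for Gabarapl2, which was not analysed here.

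Autophagy encloses cytoplasm in a double membrane that fuses with the lysosome. A kinase complex around ULK1 starts the process, a lipid kinase complex around Beclin 1 marks the membrane, WIPI proteins bind that mark, and ATG7 activates the small ATG8 proteins (LC3 and GABARAP proteins) that are then joined to the membrane and recruit cargo receptors. In mitophagy the cargo is the mitochondrion. Reticulocytes clear all of their mitochondria, and BNIP3L (also called NIX), an outer mitochondrial membrane receptor that binds ATG8 proteins, is known to be needed for this clearance.

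Cells of C57BL/6 mice were sorted into 7 fractions with 3 arrays each, 21 in all, and no treatment or genetic change was given in the labels. KLS cells (lin- ckit+ sca1+) are multipotent progenitors. The erythroid fractions were PreMegE (lin- ckit+ sca1+ CD150+ CD105- and Fc gamma receptor negative), CFUe and Ter119 (CD71+ Ter119+). The myeloid fractions were PreGM, GMP (lin- ckit+ sca1+ CD150- and Fc gamma receptor positive) and Mac1Gr1 (Mac1+ Gr1+). The labels gave CFUe and PreGM the same antigens, CD150- CD105- and Fc gamma receptor negative, and listed sca1+ for every lin- fraction. Neither age nor pooling of animals was given in the labels, so p-values measure only the spread between these samples.

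Levels are log2 intensities set against the 75th percentile of each array, so that 0 is that percentile and a difference of 1 is 2-fold. Each array correlated best with another array of its own fraction (21 of 21). The 75th percentile itself was 503 to 1010 intensity units in the progenitor fractions, 345 to 401 in Mac1Gr1 and 196 to 291 in Ter119. Members were well above background on every array that gave a value. A gene was called when its adjusted p in limma was under 0.05 and its change at least 2-fold.

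Markers of other cell types were high on the Ter119 arrays, and these touch every result of that fraction. Of 12 measured granulocytic genes, 12 were called higher in Ter119 than in CFUe, and the log2 of their summed level was 12.21 to 12.54 in Ter119, 2.43 to 5.37 in CFUe and 12.41 to 12.58 in Mac1Gr1. Mmp9 was well above background on none of the CFUe arrays. All 7 measured B cell genes were also called higher in Ter119 than in CFUe (summed level 6.80 to 7.32 against -0.88 to 1.32), as were 10 of 10 macrophage genes (3.23 to 3.32 against -1.66 to -0.95). Macrophage genes summed to 4.80 to 6.27 in KLS. The erythroid list of 11 measured genes summed to 10.66 to 10.95 in Ter119, 8.16 to 8.26 in CFUe and 1.37 to 1.64 in Mac1Gr1. From GMP to Mac1Gr1, 7 of 7 B cell and 9 of 10 macrophage genes were called higher too. In Ter119 against Mac1Gr1, 7 of 7 B cell and 4 of 6 T cell genes were called higher and 9 of 10 macrophage genes lower. The part of these transcripts in the members' levels was not tested. In sorted bulk samples, a change in the share of cells with a transcript and a change per cell cannot be told apart.

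**Figure D1:**
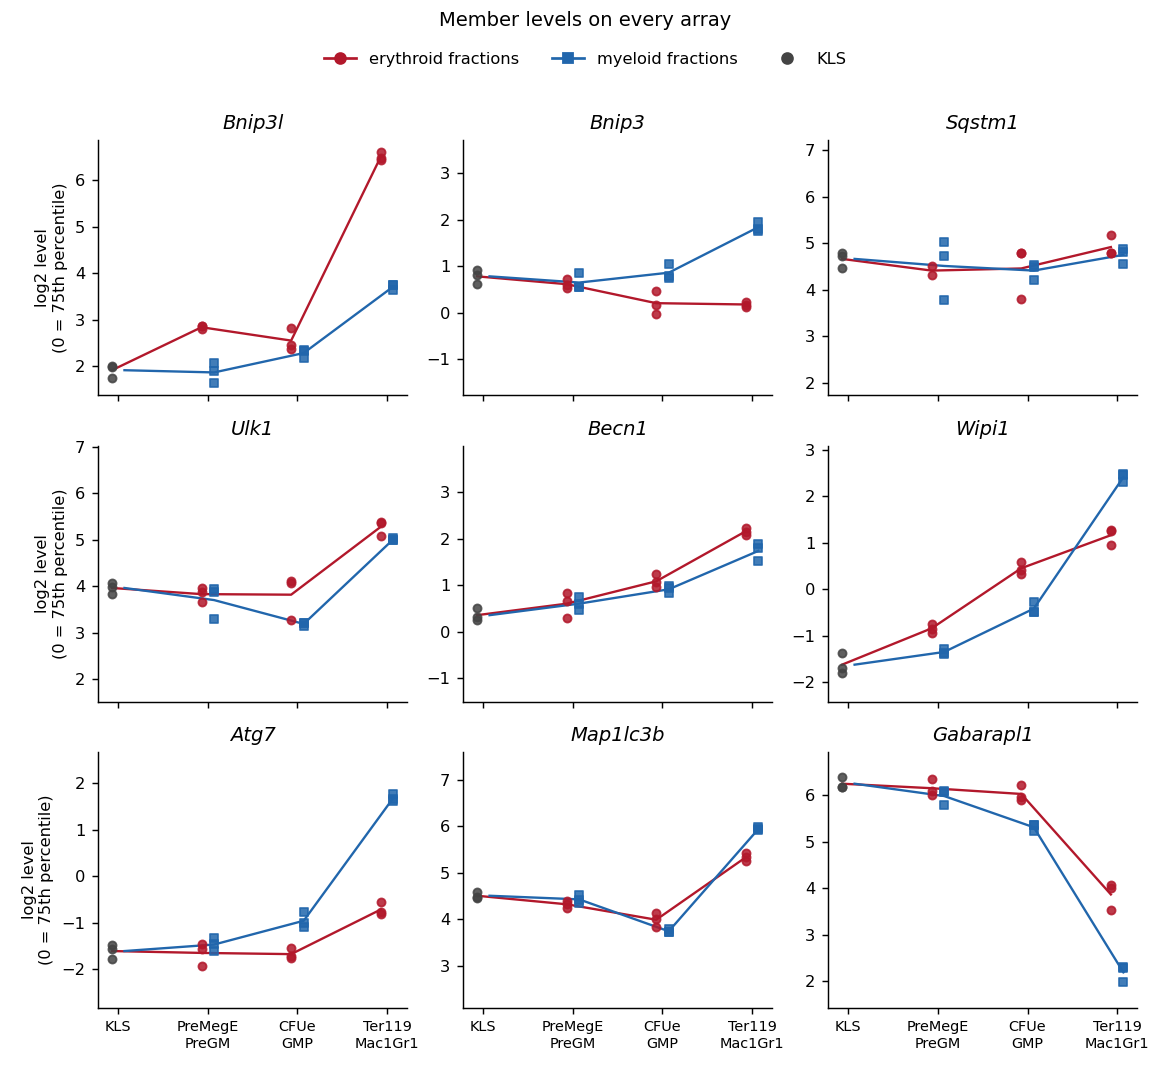
Log2 level (y axis, 0 is the array's 75th percentile) of the 9 measured members on every array, by stage (x axis). Points are arrays, lines join fraction means, red circles are erythroid and blue squares myeloid fractions, and every panel spans at least 5.5 log2 units. Bnip3l reached 6.50 in Ter119 and Gabarapl1 fell to 2.19 in Mac1Gr1 on this scale.

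The members changed at maturation more than before it. From CFUe to Ter119, 4 of 9 members rose (29.2% of all tested probes were called higher) and 1 fell (28.0% were called lower). From GMP to Mac1Gr1, 5 of 9 rose (29.1% of all probes) and 1 fell (27.6%). Calls were therefore common among all genes at these steps. The median member changed by 0.96 at the erythroid step and by 1.43 at the myeloid step, while the median of all tested probes changed by 0.05 and 0.17. Under scaling to the spike-in RNAs the medians of all probes were -1.33 and -1.86, and those of the members -0.42 and -0.60. Rises of members given below are therefore rises relative to the other transcripts of the same array, and are stated with the spike-in value. Under spike-in scaling 1 member was called higher and 2 lower at the erythroid step, and 0 higher and 4 lower at the myeloid step. Shares of all probes called under spike-in scaling are not given here, so these counts are not read as results about the members.

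Bnip3l, the mitophagy receptor of reticulocytes, had the largest rise of any member. Its level was 6.60, 6.48 and 6.43 on the Ter119 arrays and 2.45, 2.38 and 2.82 on the CFUe arrays. The groups lay far apart, with no overlap. The difference was 3.95 (SE 0.13, 15.5-fold, adjusted p = 6.41e-14), and it stayed a called rise of 2.57 under spike-in scaling. On the slide that held an array of both fractions the difference was 3.97. No slide held both GMP and Mac1Gr1, or both Ter119 and Mac1Gr1. The second Bnip3l probe gave 4.63.

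Bnip3l was also called higher in Mac1Gr1 (3.76, 3.75 and 3.64) than in GMP (2.34, 2.35 and 2.17), by 1.43 (SE 0.13, adjusted p = 2.16e-08), although this turned to -0.60 under spike-in scaling. Ter119 stood above Mac1Gr1 by 2.79 (SE 0.13, 6.91-fold, adjusted p = 1.68e-11), and by 2.06 under spike-in scaling. The order of the fractions was Ter119, Mac1Gr1, PreMegE (2.84), CFUe (2.55), GMP (2.28), KLS (1.92) and PreGM (1.87). Arrays of PreMegE and CFUe overlapped, as did those of KLS and PreGM, while the other neighbours did not. Before maturation Bnip3l had its highest level on that scale in PreMegE (2.79, 2.86 and 2.87), 0.97 above PreGM (1.64, 1.90 and 2.06; SE 0.13, adjusted p = 2.18e-05). That difference was just under 2-fold and reached it under quantile scaling (1.05), spike-in scaling (1.12), the slide as a block (1.04) and in the series table (1.08). Under spike-in scaling, however, the mean of GMP (-0.56, SD 0.54) was above those of PreMegE (-0.87) and Mac1Gr1 (-1.16).

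Bnip3, the hypoxia-responsive relative of Bnip3l, took the other course. It measured 0.18, 0.14 and 0.23 in Ter119 and 0.16, -0.02 and 0.48 in CFUe, which overlapped (difference -0.03, SE 0.14, adjusted p = 0.858), while spike-in scaling gave a called -1.41. In Mac1Gr1 it measured 1.81, 1.96 and 1.76, above the 1.05, 0.79 and 0.75 of GMP. That difference of 0.98 (SE 0.14, adjusted p = 4.41e-06) was just under 2-fold and was -1.05 under spike-in scaling. Bnip3 was 3.17-fold lower in Ter119 than in Mac1Gr1 (difference -1.66, SE 0.14, adjusted p = 1.50e-08), and by -2.39 under spike-in scaling. The 2 receptors thus stood in opposite order in the mature fractions, with Bnip3l higher in Ter119 and Bnip3 higher in Mac1Gr1.

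Among the ATG8 genes, the LC3 gene Map1lc3b and the GABARAP family gene Gabarapl1 moved apart at both maturation steps. Gabarapl1 measured 5.96, 6.22 and 5.90 in CFUe and 3.52, 4.06 and 4.01 in Ter119. In GMP it measured 5.35, 5.36 and 5.22, and in Mac1Gr1 1.98, 2.28 and 2.31. All arrays of the mature fractions lay below all arrays of the progenitors. Gabarapl1 fell by 2.16 on the log2 scale from CFUe to Ter119 (SE 0.15, adjusted p = 9.41e-10) and by 3.12 from GMP to Mac1Gr1 (SE 0.15, adjusted p = 7.62e-12). Under spike-in scaling the same falls were -3.54 and -5.15. Its second probe gave -2.22 and -3.00.

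Among KLS, PreMegE, CFUe and PreGM the Gabarapl1 means were 5.98 to 6.25 and neighbours in that order overlapped. GMP (5.31) lay below them, Ter119 (3.87) below GMP and Mac1Gr1 lowest, each without overlap. Gabarapl1 was therefore higher in Ter119 than in Mac1Gr1, by 1.68 (SE 0.15, adjusted p = 6.24e-08), which spike-in scaling lowered to 0.95, just under 2-fold.

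Map1lc3b measured 3.82, 4.0 and 4.14 in CFUe and 5.24, 5.32 and 5.42 in Ter119, with no overlap. In GMP it measured 3.71, 3.78 and 3.72, and in Mac1Gr1 5.97, 5.91 and 5.93. It rose by 1.34 from CFUe to Ter119 (SE 0.09, adjusted p = 8.19e-10), against -0.038 under spike-in scaling. It rose by 2.20 from GMP to Mac1Gr1 (SE 0.09, adjusted p = 1.43e-12), against 0.17 under spike-in scaling. The 2 Map1lc3b probes differed on the mature fractions: Ter119 minus Mac1Gr1 was -0.61 on the brighter probe and 0.70 on the other, so the order of these fractions is not settled for this gene.

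Of the 2 ATG8 genes outside the set, 1 was called higher at the erythroid step and both at the myeloid step. Gabarap was called higher in Ter119 than in CFUe (1.03, SE 0.14, adjusted p = 2.59e-06) and in Mac1Gr1 than in GMP (2.08, SE 0.14, adjusted p = 3.06e-10), against -0.35 and 0.05 under spike-in scaling. Map1lc3a differed by 0.69 (SE 0.18, adjusted p = 0.00211) and 1.71 (SE 0.18, adjusted p = 1.32e-07) at these steps, against -0.69 and -0.32 under spike-in scaling.

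Promoter sequences are shown for the ATG8 pair that moved apart and for Bnip3 and Atg7, chosen because their windows held the motif CACGTG. Both were lower in Ter119 than in Mac1Gr1. So was Wipi1, whose window held none of the searched motifs and is not shown. Each run is the 250 bases before the annotated start, read 5′ to 3′ on the gene's strand from RefSeq (GRCm38.p6), with motif matches in capitals. The windows are chr8:121590188-121590437 (plus strand) for Map1lc3b, chr6:129532942-129533191 (plus) for Gabarapl1, chr7:138909507-138909756 (minus) for Bnip3 and chr6:114670846-114671095 (plus) for Atg7.
Map1lc3b: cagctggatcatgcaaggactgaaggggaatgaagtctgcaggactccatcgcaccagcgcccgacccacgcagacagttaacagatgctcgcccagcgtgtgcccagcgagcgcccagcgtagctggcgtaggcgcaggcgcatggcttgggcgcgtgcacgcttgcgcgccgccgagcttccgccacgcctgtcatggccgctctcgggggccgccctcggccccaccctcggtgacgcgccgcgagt
Gabarapl1: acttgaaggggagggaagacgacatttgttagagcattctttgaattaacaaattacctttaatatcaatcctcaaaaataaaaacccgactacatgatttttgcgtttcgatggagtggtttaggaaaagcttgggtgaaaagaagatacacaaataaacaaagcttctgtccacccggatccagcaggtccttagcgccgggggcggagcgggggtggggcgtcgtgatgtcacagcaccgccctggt
Bnip3: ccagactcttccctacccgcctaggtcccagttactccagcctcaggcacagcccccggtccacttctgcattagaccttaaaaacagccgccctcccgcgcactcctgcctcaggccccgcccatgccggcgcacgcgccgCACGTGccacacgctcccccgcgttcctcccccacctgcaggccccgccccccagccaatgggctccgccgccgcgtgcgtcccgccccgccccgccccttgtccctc
Atg7: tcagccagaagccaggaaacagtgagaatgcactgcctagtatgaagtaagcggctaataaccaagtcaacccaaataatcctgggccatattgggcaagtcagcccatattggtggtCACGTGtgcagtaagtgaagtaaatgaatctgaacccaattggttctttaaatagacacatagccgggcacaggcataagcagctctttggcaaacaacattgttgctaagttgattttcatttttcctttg

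Both strands of each window were searched for 6 motifs: GATAA (held by 22.6% of 32851 such windows over all genes), CACGTG (6.0%), ACGTG (16.6%), TGACNNNGC (10.2%), GTAAACA (3.2%) and GGAAGTG (8.6%). CACGTG is bound by the TFEB family of autophagy regulators, among other factors. It was found once in Bnip3, starting at -108 from the start, and once in Atg7, at -132. ACGTG, the hypoxia response core, matched inside those same letters and once more in Gabarapl2. None of the other motifs matched in the 8 member windows that the table held, and neither Map1lc3b nor Gabarapl1 held any of the 6. The Gabarapl1 window was 46.8% G and C and that of Map1lc3b 69.6%, against a median of 52.4% over all windows. A match is a description of letters and no binding was measured here.

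Of the initiation genes, Ulk1, the kinase that starts autophagosome formation, rose at both maturation steps on the array scale. It measured 5.08, 5.35 and 5.39 in Ter119 against 4.06, 4.11 and 3.28 in CFUe, where replicate 3 lay well below the others. In Mac1Gr1 it measured 4.99, 5.04 and 4.99 against 3.21, 3.20 and 3.15 in GMP. The rises were 1.46 (SE 0.20, adjusted p = 3.19e-06) and 1.82 (SE 0.20, adjusted p = 2.17e-07), against 0.08 and -0.21 under spike-in scaling. The mature fractions differed by 0.27 (SE 0.20, adjusted p = 0.239).

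Becn1, which encodes Beclin 1 of the lipid kinase complex, rose at the erythroid maturation step on the array scale. Starting from a mean of 0.36 in KLS, it reached 0.60 (PreMegE), 1.09 (CFUe) and 2.16 (Ter119) along the erythroid path. The myeloid path gave 0.60 (PreGM), 0.91 (GMP) and 1.74 (Mac1Gr1). KLS overlapped PreMegE and PreGM. Under spike-in scaling the erythroid means were -2.89, -3.10, -3.14 and -3.44 from KLS to Ter119. From CFUe (1.24, 1.06 and 0.95) to Ter119 (2.15, 2.24 and 2.09) it rose by 1.08 (SE 0.14, adjusted p = 2.34e-06). This call was lost under normexp background correction (0.92) and with the slide as a block (0.93), and the value was -0.30 under spike-in scaling. From GMP (0.97, 0.94 and 0.82) to Mac1Gr1 (1.81, 1.89 and 1.52) it was higher by 0.83, under 2-fold (SE 0.14, adjusted p = 4.79e-05), and -1.21 under spike-in scaling.

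Wipi1, whose product binds the lipid mark on the growing membrane, was the only member called between PreMegE and CFUe. On the erythroid side its mean went from -1.62 (KLS) and -0.84 (PreMegE) to 0.46 (CFUe) and 1.17 (Ter119). In the myeloid fractions they were -1.34 in PreGM, -0.41 in GMP and 2.42 in Mac1Gr1. Only KLS and PreGM overlapped among neighbours in the order of levels. CFUe (0.34, 0.60 and 0.43) exceeded PreMegE (-0.73, -0.93 and -0.85) by 1.29 (SE 0.13, adjusted p = 2.51e-07), where 9.96% of all probes were called higher. Under spike-in scaling that difference was 0.78, which was not called, and within the shared slide it was 1.33.

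Wipi1 rose most in the myeloid lineage. Mac1Gr1 measured 2.46, 2.47 and 2.31 against -0.48, -0.49 and -0.26 in GMP, a rise of 2.83 (SE 0.13, 7.10-fold, adjusted p = 2.16e-12) that was 0.79 under spike-in scaling. Ter119 (0.96, 1.29 and 1.25) differed from CFUe by 0.71, under 2-fold (SE 0.13, adjusted p = 6.83e-05; -0.67 under spike-in scaling), although the second probe gave a called 1.20. Ter119 was lower than Mac1Gr1 by -1.25 (SE 0.13, adjusted p = 1.91e-07), by -1.97 under spike-in scaling and by just under 2-fold under quantile scaling (-0.99). The second probe gave -0.86 for Ter119 against Mac1Gr1, which was not called.

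Atg7, the enzyme that activates the ATG8 and ATG12 proteins, was higher in Mac1Gr1 than in every other fraction on the array scale. It measured 1.61, 1.77 and 1.66 in Mac1Gr1 and -0.81, -0.57 and -0.78 in Ter119. GMP measured -1.01, -0.77 and -1.10, and CFUe -1.71, -1.77 and -1.55. Ter119 overlapped GMP. The rise from GMP to Mac1Gr1 was 2.64 (SE 0.14, 6.24-fold, adjusted p = 1.35e-11), against 0.61 under spike-in scaling. From CFUe to Ter119 Atg7 differed by 0.96, under 2-fold (SE 0.14, adjusted p = 5.96e-06), and by -0.42 under spike-in scaling. It was lower in Ter119 than in Mac1Gr1 by -2.40 (SE 0.14, adjusted p = 2.00e-10), and by -3.12 under spike-in scaling.

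Sqstm1, which encodes the cargo receptor p62, was flat. Its fraction means ran from 4.42 to 4.92, and only 0.461% of genes had a smaller range over the 7 fractions. It measured 4.79, 5.18 and 4.79 in Ter119, 4.79, 4.80 and 3.80 in CFUe, 4.57, 4.88 and 4.82 in Mac1Gr1 and 4.53, 4.50 and 4.22 in GMP. All neighbours in the order of its levels overlapped, and limma called none of its 11 comparisons on the array scale, where the lowest adjusted p was 0.158. Replicate 3 was low in CFUe and in PreGM (3.78 against 5.04 and 4.73), and the value of PreMegE replicate 2 was left out as an outlier spot, so that n = 2 there. The difference of Ter119 from CFUe was 0.46 (adjusted p = 0.158) and that of Mac1Gr1 from GMP 0.34 (both SE 0.29, adjusted p = 0.296). Under spike-in scaling the latter was a called -1.69.

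In the mature fractions side by side, 2 of 9 members were called higher in Ter119 than in Mac1Gr1, Bnip3l and Gabarapl1 (22.0% of all probes were), and 3 lower, Atg7, Bnip3 and Wipi1 (19.9% of all probes). The second Wipi1 probe gave -0.86, which was not called. Under spike-in scaling, where the median of all probes was -0.67, Bnip3l was the 1 called higher and 4 were called lower, Map1lc3b being the fourth. All 5 members kept their direction under it, and Gabarapl1 lost its call. Shares of all probes called under spike-in scaling are not given here, so its counts are not read as results about the members.

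The Ter119 level of each member was also set against those of CFUe and Mac1Gr1. By means on the array scale, Map1lc3b, Gabarapl1, Wipi1 and Atg7 lay between these fractions in Ter119, although the second Map1lc3b probe lay above both. Bnip3l, Ulk1, Becn1 and Sqstm1 had means above both, but Ulk1 and Sqstm1 did not pass the test against Mac1Gr1 (adjusted p = 0.239 and 0.624). Becn1 exceeded Mac1Gr1 by 0.42, which was under 2-fold and not called (adjusted p = 0.014). Bnip3 lay below both and overlapped CFUe. Under spike-in scaling Bnip3l alone lay above both, and Ulk1 and Gabarapl1 lay between. Bnip3, Map1lc3b, Wipi1, Sqstm1, Atg7 and Becn1 had means below both. Of these, only Bnip3 was called lower than CFUe (-1.41). Sqstm1 and Becn1 were not called lower than Mac1Gr1 either (-0.56 and -0.30). The mean Bnip3l level of Ter119 exceeded the highest mean of any other fraction by 2.79, that of Mac1Gr1. The part of the granulocytic transcripts in these positions was not tested.

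**Figure D2:**
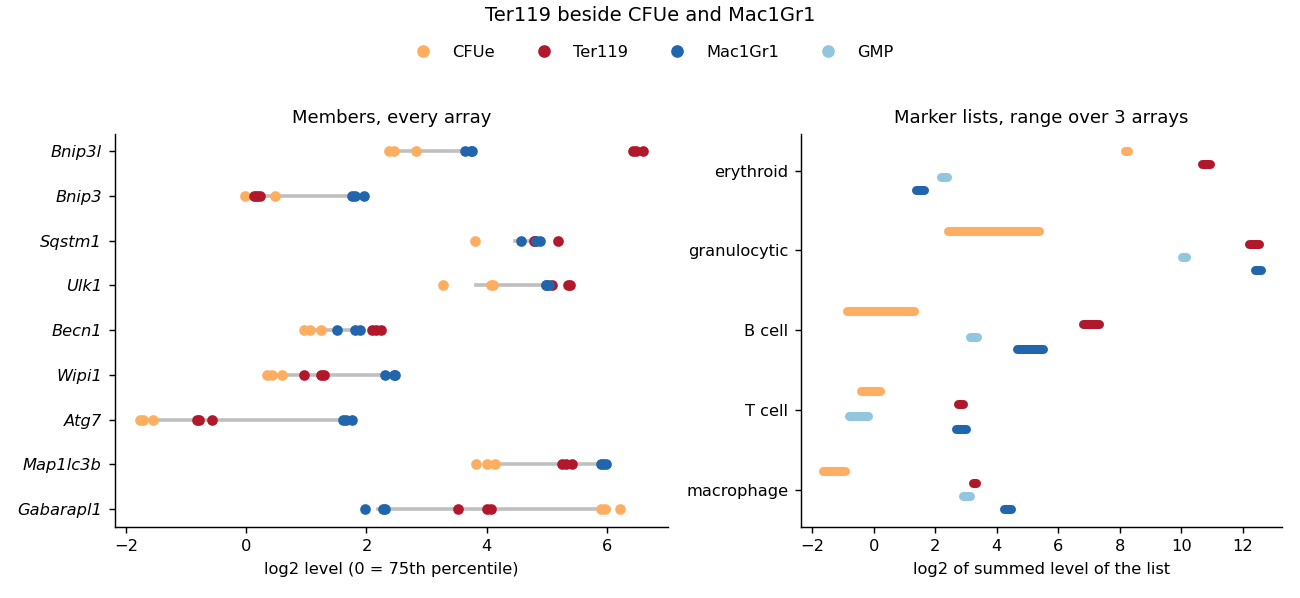
Left, log2 level (x axis, 0 is the array's 75th percentile) of each member on the 3 arrays of CFUe, Ter119 and Mac1Gr1, with a grey bar between the CFUe and Mac1Gr1 means. Right, range over 3 arrays of the log2 summed level (x axis) of 5 marker lists in CFUe, Ter119, GMP and Mac1Gr1. Only Bnip3l lies far outside the grey bar in Ter119, and the granulocytic list sums to 12.21 to 12.54 there and 12.41 to 12.58 in Mac1Gr1.

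**Figure D3:**
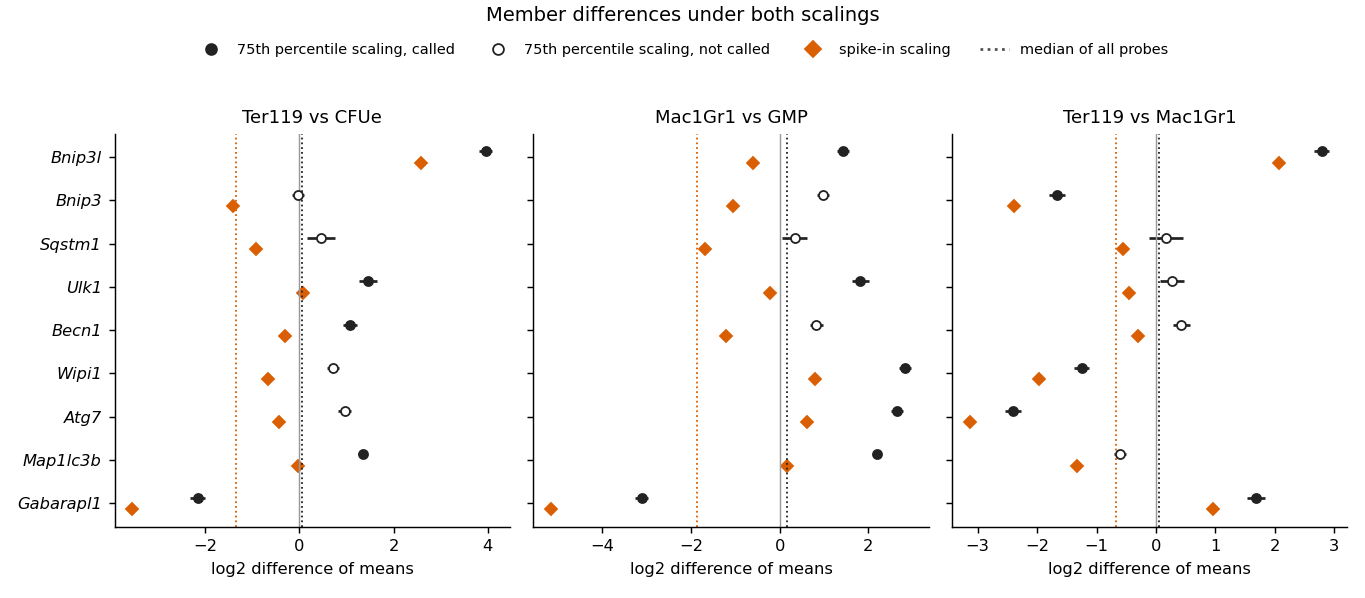
Log2 difference of fraction means (x axis) of the 9 members in 3 comparisons. Circles are on the 75th percentile scale with their standard error, filled when called, diamonds are on the spike-in scale, and dotted lines are the medians of all probes. Gabarapl1 is negative and Bnip3l positive in Ter119 against CFUe under both scalings, whereas the Map1lc3b and Ulk1 rises are near 0 on the spike-in scale.

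Whether maturation changed a member differently in the erythroid and myeloid lineage was tested by the difference of the 2 steps. Bnip3l changed by 2.52 more from CFUe to Ter119 than from GMP to Mac1Gr1 (SE 0.18, adjusted p = 6.97e-09), the 1 member called in this direction (20.9% of all probes). Wipi1 (-2.12, SE 0.18, adjusted p = 4.11e-08), Atg7 (-1.68, SE 0.19, adjusted p = 1.43e-06) and Bnip3 (-1.01, SE 0.19, adjusted p = 0.000274) changed more in the myeloid direction, 3 of 9 against 19.0% of all probes. Under spike-in scaling the values were 3.17 for Bnip3l, -1.46 for Wipi1, -1.03 for Atg7 and -0.36 for Bnip3, so the Bnip3 call was lost. Bnip3 stood at the 2-fold limit and was also lost under quantile scaling, normexp correction, the slide as a block, the series table and the removal of any of 5 single arrays. Gabarapl1 fell less in the erythroid lineage by 0.96 (SE 0.22, adjusted p = 0.00127), which passed 2-fold under quantile scaling (1.47), spike-in scaling (1.61), the slide as a block (1.03) and the series table (1.55).

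At the other comparisons limma called 0 of 9 members. These were PreMegE against KLS (12.4% of all probes were called), PreGM against KLS (8.63%), GMP against PreGM (10.4%), PreMegE against PreGM (12.0%), CFUe against GMP (26.3%) and the difference of the second steps (20.2%). At an unadjusted p under 0.05 the counts were 2, 1, 7, 2, 6 and 5. The share of all probes at that looser limit is not given here, so these counts are not read as results about the members. GMP minus PreGM was 0.93 for Wipi1 (adjusted p = 3.37e-05), -0.69 for Map1lc3b (adjusted p = 4.15e-05) and -0.67 for Gabarapl1 (adjusted p = 0.0036). Under spike-in scaling these were 1.95, 0.33 and 0.34, so the direction of the ATG8 pair turned. CFUe stood above GMP by 0.87 in Wipi1 (adjusted p = 1.87e-05) and below it by -0.72 in Atg7 (adjusted p = 0.000286), values that were -0.51 and -2.09 under spike-in scaling.

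The rest of the pathway was read from lists of other autophagy genes. Of 67 other core genes tested, 21 were called higher and 15 lower from CFUe to Ter119 (median 0.08), and 23 higher and 8 lower from GMP to Mac1Gr1 (median 0.46). The shares called higher were 31.3% and 34.3%, near the 29.2% and 29.1% of all probes, and those called lower 22.4% and 11.9%, against 28.0% and 27.6%. Under spike-in scaling the counts were 8 and 38, and 2 and 44, with medians of -1.30 and -1.57 against -1.33 and -1.86 over all probes. In the difference of the 2 steps 10 were higher and 23 lower (median -0.40, against -0.07 over all probes), which became 17 and 7 under spike-in scaling (median 0.25 against 0.58). Of all probes, 20.9% were called higher and 19.0% lower in that difference. The counts of each list below are to be read beside these shares of all probes. Shares of all probes called under spike-in scaling are not given here.

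**Figure D4:**
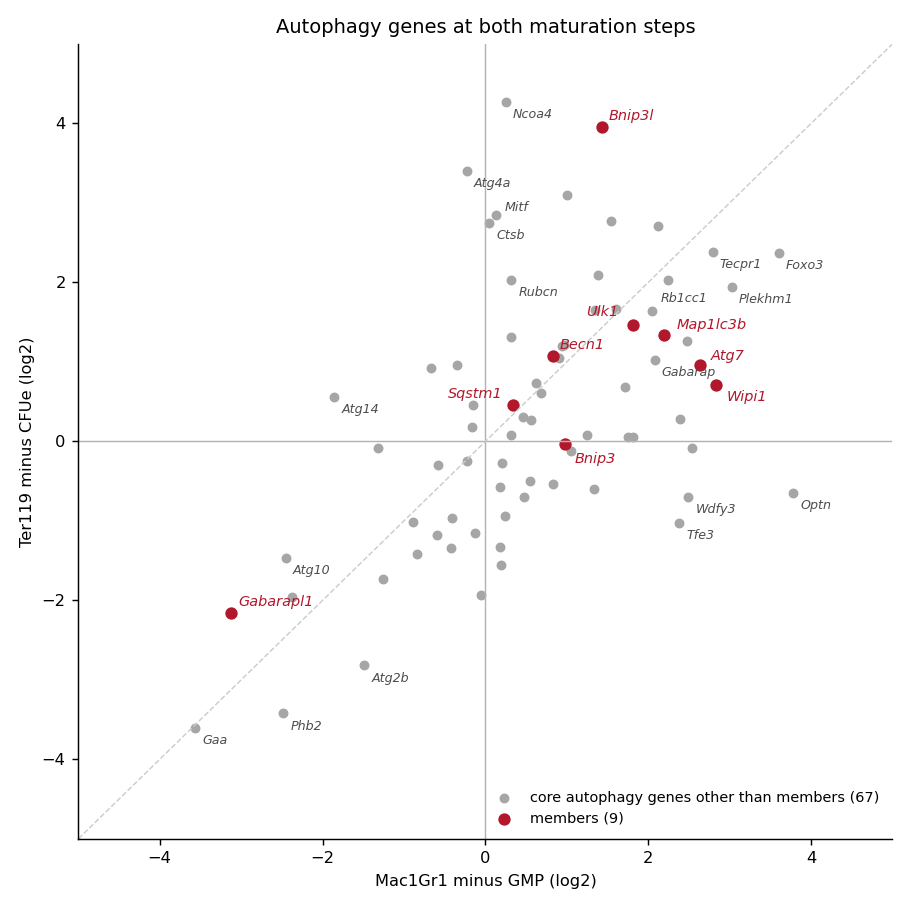
Log2 difference at the erythroid step (Ter119 minus CFUe, y axis) against the myeloid step (Mac1Gr1 minus GMP, x axis) for 9 members (red) and 67 other core autophagy genes (grey), on the 75th percentile scale. Each point is a gene, the dashed line marks equal change, and the steps share no array. Ncoa4, Atg4a and Bnip3l lie far above the line and Optn, Wdfy3 and Tfe3 far below it.

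Of 8 cargo receptors, 3 changed more in the erythroid and 2 more in the myeloid direction (4 and 2 under spike-in scaling), and the 3 named here had the most extreme differences. Ncoa4, the receptor that brings ferritin to the autophagosome, measured a mean of 5.67 in Ter119 and 1.39 in CFUe, a rise of 4.27 (SE 0.12, adjusted p = 1.01e-14; 2.89 under spike-in scaling), and differed by 0.25 from GMP to Mac1Gr1 (adjusted p = 0.0639; -1.79 under spike-in scaling). Optn, which encodes optineurin, a receptor for ubiquitinated mitochondria and bacteria, rose by 3.78 from GMP to Mac1Gr1 (SE 0.27, adjusted p = 9.30e-10; 1.75 under spike-in scaling) and differed by -0.64 from CFUe to Ter119 (SE 0.27, adjusted p = 0.039; -2.03 under spike-in scaling). Wdfy3, a large adaptor for protein aggregates, rose by 2.49 in the myeloid step (adjusted p = 1.54e-11; 0.46 under spike-in scaling) and differed by -0.70 in the erythroid step. The differences between the steps were 4.03 for Ncoa4, -4.43 for Optn and -3.19 for Wdfy3, all called under both scalings. At the single steps, 4 of the 8 rose and 1 fell at the erythroid step and 3 rose and 1 fell at the myeloid step (2 and 3, and 1 and 5, under spike-in scaling).

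Of 10 conjugation genes, 2 changed more in the erythroid and 5 more in the myeloid direction (5 and 1 under spike-in scaling). Atg4a, a protease that processes ATG8 proteins, rose by 3.40 from CFUe to Ter119 (SE 0.13, adjusted p = 5.00e-13; 2.02 under spike-in scaling), from a mean of -0.06 to 3.34, and differed by -0.23 from GMP to Mac1Gr1 (adjusted p = 0.128; -2.26 under spike-in scaling). Atg10, the conjugating enzyme of ATG12, fell by 2.45 from GMP to Mac1Gr1 (adjusted p = 6.66e-10) and by 1.47 from CFUe to Ter119 (adjusted p = 5.36e-07), with lower values (-4.49 and -2.85) under spike-in scaling. Of the 10, 3 rose and 2 fell at the erythroid step and 4 rose and 1 fell at the myeloid step (2 and 6, and 0 and 6, under spike-in scaling).

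In the initiation complexes, Rb1cc1, the FIP200 scaffold of the ULK complex, rose by 1.64 (adjusted p = 1.30e-06) and 2.04 (adjusted p = 8.79e-08) at the erythroid and myeloid steps, against 0.26 and 0.01 under spike-in scaling. Rubcn, a negative regulator of the lipid kinase complex, rose by 2.03 at the erythroid step (adjusted p = 9.02e-10; 0.65 under spike-in scaling). Atg14, its targeting subunit, fell by 1.86 at the myeloid step (adjusted p = 2.51e-10; -3.89 under spike-in scaling). Atg2b, a lipid transfer protein, fell by 2.82 (adjusted p = 2.96e-08) and 1.49 (adjusted p = 6.22e-05) at the 2 steps, and by more under spike-in scaling (-4.20 and -3.52). The ULK list counted 1 of 4 higher at the erythroid step and 2 of 4 at the myeloid step, and the lipid kinase list 1 of 7 higher and 3 lower, then 0 higher and 1 lower. Under spike-in scaling no gene of either list was called higher, and 2 and 2 of the ULK list and 4 and 7 of the lipid kinase list were called lower at the 2 steps.

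At the lysosomal end, the fusion gene Tecpr1 rose by 2.38 in the erythroid step (adjusted p = 1.57e-10; 1.0 under spike-in scaling) and by 2.79 in the myeloid step (adjusted p = 1.92e-11; 0.76 under spike-in scaling). Plekhm1 rose by 1.95 (adjusted p = 2.42e-10; 0.56 under spike-in scaling) and 3.03 (adjusted p = 8.62e-13; 0.99 under spike-in scaling) at these steps. Of 6 fusion genes, 3 rose and 1 fell and then 4 rose and 0 fell at these steps (1 and 3, and 0 and 2, under spike-in scaling). Ctsb, a lysosomal protease, rose by 2.75 from CFUe to Ter119 (adjusted p = 4.13e-10; 1.37 under spike-in scaling) and differed by 0.05 from GMP to Mac1Gr1. Gaa, the lysosomal glucosidase, fell by 3.60 (adjusted p = 1.21e-12) and 3.57 (adjusted p = 1.29e-12) at the 2 steps, and by more under spike-in scaling (-4.98 and -5.60). On the array scale most lysosomal genes were not called at either step (6 of 10 and 8 of 10). Under spike-in scaling 1 was called higher and 7 lower at the erythroid step, and 0 higher and 9 lower at the myeloid step. The list medians were then -1.465 and -1.79, against -1.334 and -1.858 over all probes.

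Among the transcription factors that act on autophagy genes, Foxo3 rose by 3.60 at the myeloid step (adjusted p = 5.55e-12; 1.57 under spike-in scaling) and by 2.37 at the erythroid step (adjusted p = 1.34e-09; 0.99 under spike-in scaling). Tfe3, a relative of TFEB, rose by 2.38 at the myeloid step (adjusted p = 5.25e-08; 0.34 under spike-in scaling) and fell by 1.03 at the erythroid step (adjusted p = 0.000637; -2.41 under spike-in scaling). Mitf was called higher in Ter119 than in CFUe by 2.85 (SE 0.70, adjusted p = 0.00145; 1.47 under spike-in scaling), with 2 of 3 CFUe arrays well above background. Of 7 factors, 4 rose and 1 fell at the erythroid step and 4 rose and 0 fell at the myeloid step (2 and 2, and 1 and 3, under spike-in scaling).

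Other mitophagy receptors and genes of the PINK1 and parkin route moved in both directions. Of 8 genes, 2 rose and 4 fell at the erythroid step and 2 rose and 3 fell at the myeloid step (0 and 6 at both under spike-in scaling). Phb2, a prohibitin of the inner membrane, fell by 3.42 (adjusted p = 1.51e-13) and 2.48 (adjusted p = 6.41e-12). Of 12 genes of mitochondrial dynamics and content, 9 fell at the erythroid step and 7 at the myeloid step, with 2 and 1 rising. Of all probes, 28.0% and 27.6% were called lower. The list medians were -1.92 and -1.16, against 0.05 and 0.17 over all probes. Under spike-in scaling 10 and 11 fell, with medians of -3.30 and -3.20 against -1.33 and -1.86 over all probes. Ppargc1b, a coactivator of mitochondrial biogenesis, fell by 3.29 at both steps (adjusted p = 4.61e-13 and 4.44e-13).

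Upstream regulators and stress responses varied by gene. Of 13 genes of mTORC1 and nutrient sensing, 3 rose and 6 fell at the erythroid step and 4 rose and 3 fell at the myeloid step (1 and 10, and 0 and 9, under spike-in scaling). Prkaa1, a catalytic subunit of the energy sensor AMPK, fell by 1.33 from CFUe to Ter119 (adjusted p = 6.56e-09; -2.71 under spike-in scaling) and rose by 1.69 from GMP to Mac1Gr1 (adjusted p = 2.93e-10; -0.35 under spike-in scaling). Of the sestrins, which restrain mTORC1, Sesn3 rose by 2.62 at the erythroid step (adjusted p = 1.20e-10; 1.24 under spike-in scaling) and differed by 0.30 at the myeloid step (adjusted p = 0.101; -1.74 under spike-in scaling). Sesn2 rose by 1.06 (adjusted p = 0.000147; -0.32 under spike-in scaling) and 3.03 (adjusted p = 4.13e-10; 1.0 under spike-in scaling) at the 2 steps.

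Hypoxia response genes, the class to which Bnip3 belongs, counted 4 of 12 higher and 4 lower at the erythroid step and 2 higher and 4 lower at the myeloid step (3 and 7, and 0 and 10, under spike-in scaling). Egln3, an oxygen sensor, was not well above background in CFUe and was at least 8.68-fold higher in Ter119 (adjusted p = 1.79e-14), while it fell by 1.11 from GMP to Mac1Gr1 (adjusted p = 1.23e-06). P4ha2, a collagen prolyl hydroxylase, was not well above background in Ter119, Mac1Gr1 or GMP, and CFUe was at least 8.61-fold above Ter119 (adjusted p = 2.66e-10). The glucose transporter gene Slc2a1 rose by 3.97 at the erythroid step (adjusted p = 9.04e-11; 2.59 under spike-in scaling). Pdk1, a pyruvate dehydrogenase kinase, fell by 2.67 and 3.37 at the 2 steps (adjusted p = 1.62e-12 and 1.12e-13).

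The NRF2 response, which Sqstm1 feeds, counted 2 of 9 genes higher and 4 lower at the erythroid step and 4 higher and 2 lower at the myeloid step (2 and 7, and 2 and 5, under spike-in scaling). Slc7a11, the cystine transporter, rose by 4.86 from GMP to Mac1Gr1 (adjusted p = 2.08e-12; 2.82 under spike-in scaling) and was at least 4.08-fold higher in Ter119 than in CFUe, where it was not well above background (adjusted p = 1.84e-11). Nqo1, a quinone reductase, was not well above background in GMP and was at least 10.6-fold higher in Mac1Gr1 (adjusted p = 4.88e-12), and it fell by 1.19 from CFUe to Ter119 (adjusted p = 3.65e-06; -2.57 under spike-in scaling).

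The genes whose fraction means ran most like those of the 3 most variable members were found among 14307 genes by the root mean square difference over the 7 fractions, each gene centered on its own mean. Bnip3l (range 4.64) was followed by Ankrd2 (0.238), Cnn1 (0.244) and 1700022I11Rik (0.256). Gabarapl1 (range 4.06) was followed most closely by Zfp647 (0.129), Dnajc27 (0.152) and Ipo11 (0.162). Wipi1 (range 4.03) was followed by Ampd3 (0.223), Vcl (0.245) and Macir (0.296). None of these 9 genes belongs to the pathway lists.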

How the data were processed

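Total RNA of 21 sorted samples was labelled with Cy3 beside synthetic spike-in RNAs and hybridised to 1-color Agilent arrays, per the labels. The authors deposited background-corrected spot intensity values from Agilent Feature Extraction 10.7.1.1 on a linear scale. A series table, deposited as log2 values with between-array normalization by the authors (method not given in the sources used here; column medians 6.15 to 6.23), served as an alternative.

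Outlier spots (80 to 283 per array) were dropped and spots of a probe averaged. No spot was saturated. Symbols came from RefSeq accessions (GRCm38.p6 names; 64.8% of 41174 probes matched), and the brightest probe stood for a gene. The array design names build mm9, so the only coordinates given are those of the GRCm38.p6 promoter windows. Of all probes, 29527 passed the background flag in every array (3 of 3) of some fraction and were tested in 1 limma fit (3.58.1, R 4.3.3, two-sided, Benjamini-Hochberg over all tested probes within each of 11 comparisons, 14 residual degrees of freedom, median residual SD 0.262). The number of arrays limits the precision. SE is the moderated standard error.

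A fold given as "at least" divides the brighter mean by a bound for the dim group, averaged over its arrays: the dim probe itself or the faintest probe well above background, whichever was higher. Members and lists were chosen with earlier results of these data known. All members were named, with the 6 largest and 6 most negative called differences between the third steps over the pathway lists, and each list's largest change at each maturation step. Alternatives were quantile and spike-in scaling (7 of 10 spike-in sequences), normexp correction with an offset of 50, no filter on dim probes, blocks for slide (9) or replicate number, the series table, dropping the minimum fold, the compared fractions alone, the mean of a gene's probes, and leaving out each array. The fit was tested on simulated data. Figures used Python 3.11.15 and matplotlib 3.10.9.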

Additional observations from a re-analysis of the deposited data

Results flagged for a closer look

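By the test of the difference between the erythroid step (Ter119 minus CFUe) and the myeloid step (Mac1Gr1 minus GMP), 4 of 9 members were called. Of all probes, 39.9% were called in that test. The difference was 2.52 for Bnip3l, which rose in both on the array scale but 3.95 against 1.43. It was -2.12 for Wipi1 (0.71 against 2.83), -1.68 for Atg7 (0.96 against 2.64) and -1.01 for Bnip3 (-0.03 against 0.98). Under spike-in scaling these were 3.17, -1.46, -1.03 and -0.36, in that order, and Bnip3 was not called. The Bnip3 call was also lost under quantile scaling, normexp correction, the slide as a block and the series table. The Ter119 arrays held granulocytic transcripts near the level of Mac1Gr1 (summed level 12.21 to 12.54 against 12.41 to 12.58), and their part in these differences was not tested.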

How the results depend on the processing

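Spike-in scaling changed the most. Under it the members called numbered 0 for CFUe against PreMegE, 3 for Ter119 against CFUe, 5 for GMP against PreGM, 1 for PreMegE against PreGM, 6 for CFUe against GMP and 7 for the difference of the second steps. Shares of all probes called under it are not given here, so these counts are not read as results about the members. In Ter119 against CFUe the calls of Map1lc3b (-0.038, adjusted p = 0.902) and Becn1 (-0.30, adjusted p = 0.378) were lost, with a change of sign. The Ulk1 call was lost there without a change of sign (0.08). In Mac1Gr1 against GMP the sign also changed for Bnip3l (-0.60) and Ulk1 (-0.21), which were then not called. Map1lc3b (0.17), Wipi1 (0.79) and Atg7 (0.61) kept their sign in that comparison but lost their calls. Spike-in scaling gave called values of the opposite sign there for Bnip3 (-1.05), Sqstm1 (-1.69) and Becn1 (-1.21). In CFUe against GMP it did so for Bnip3l (-1.11), Map1lc3b (-1.13), Sqstm1 (-1.33) and Becn1 (-1.20). In the difference of the second steps it did so for Map1lc3b (-1.18), Wipi1 (-1.17), Sqstm1 (-1.47) and Becn1 (-1.36). The median of all probes under it was 0.99 in GMP against PreGM, -1.16 in CFUe against GMP and -1.39 in the second steps, against -0.02, 0.22 and 0.15 on the array scale. The cause was not tested. PreMegE against PreGM gave 1 member under quantile scaling, the slide as a block and the series table, and 0 to 1 with single arrays left out, the 1 being Bnip3l (1.07) without PreGM replicate 3. The slide as a block also gave 1 member in PreMegE against KLS and in GMP against PreGM. Without a minimum fold, by construction, the counts rose to 2 for PreMegE against KLS, 4 for CFUe against PreMegE, 5 for GMP against PreGM, 2 for PreMegE against PreGM, 6 for CFUe against GMP and 3 for the second steps. The shares of all probes called without a minimum fold are not given here either. Replicate numbers did not pair the samples: deviations of same-numbered arrays correlated at -0.43 to 0.37 over 63 pairs of fractions, and 7 of 21 arrays correlated best with their own number. With the replicate number as a block the members called were 5 for Ter119 against CFUe and 6 for Mac1Gr1 against GMP, as without it, and no call changed. Members were well above background on every array that gave a value. The part of signal intensity in these results was not tested.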
